A study of Homo sapiens with 26 samples.

Results

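Transcript levels were compared between NCCIT cells depleted of DNMT1 together with DNMT3B and NCCIT cells depleted of DNMT1 together with DNMT3A. NCCIT is a human embryonal carcinoma line that expresses the genes of pluripotent cells. The comparison rests on 4 of the 26 Affymetrix Human Gene 1.0 ST arrays of the study, chosen by their sample titles. These are 2 arrays of cells that received siRNA to DNMT1 plus DNMT3B (siD1+3B) and 2 arrays of cells that received siRNA to DNMT1 plus DNMT3A (siD1+3A). All were grown in McCoy's 5A medium with serum and transfected with the PepMute reagent, so siRNA against DNMT1 is common to both groups and only its partner differs. The same exchange of partners was examined beside siRNA against DNMT3L (3B+3L and 3A+3L) and without a partner (siDNMT3B and siDNMT3A). The triple depletion siD1+3A+3B and the control siRNA groups siNTC-1 and siNTC-2 were also used, with 2 arrays in each group. The time from transfection to RNA extraction is not stated in the labels. Whether the 2 arrays of a group stem from different cultures is not recorded there either, and p-values therefore reflect only how far duplicates lie apart, which may be technical. In RNA of whole cultures, fewer cells that express a gene and less RNA per cell cannot be told apart.

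DNMT1 copies methylation of CG dinucleotides onto the new strand after DNA replication. DNMT3A and DNMT3B add methyl groups to sites that lack them on both strands, and DNMT3L stimulates both without catalysing the reaction itself. Pluripotent and embryonal carcinoma cells express DNMT3B strongly, and methylation at CG-rich promoters is known to accompany silencing of the gene. The arrays measured RNA only, and methylation was not analysed here.

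Values are log2 expression values, and a difference is siD1+3B minus siD1+3A on that scale unless another is named, with its standard error. A gene was called where the moderated test of limma gave a Benjamini-Hochberg adjusted p under 0.05 among 18417 genes. With 2 arrays in each group, precision is limited by their number. Duplicates correlated at 0.9987 in siD1+3B and 0.9988 in siD1+3A. Along the first principal component, which held 49.5% of the variance, the 26 arrays lay on both sides of a gap, with 18 on the side of siNTC-2 and 8 on that of siNTC-1. All 4 arrays compared were on the side of siNTC-2, and values are set beside that control, but no label ties these depletions to either control group. The controls differed from each other at 8234 genes (44.7%), so a level relative to control can depend on which of them is used. Values against siNTC-1 are given for some of the genes where it changes the reading, but not for all. Differences between siD1+3B and siD1+3A involve no control. Of 11 markers of embryonal carcinoma cells, 8 were measured on rows with a single gene symbol (SOX2, LIN28A, LIN28B, DPPA4, L1TD1, GDF3, SALL4 and TERF1). Their values on the 4 arrays lay between 9.09 and 12.64, where the array medians were 6.28 to 6.33. Of the markers of other cells, 9 of 10 for fibroblasts, 8 of 8 for blood and 8 of 8 for endothelium were below the median gene.

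The targeted transcripts were examined first. DNMT3B was 11.28 and 11.28 in siD1+3B, against 11.86 and 11.89 in siD1+3A and 11.68 and 11.66 in siNTC-2. DNMT3B fell by 0.60 ± 0.06 relative to siD1+3A (adjusted p = 6.25e-05). DNMT3A was 7.33 and 7.35 in siD1+3B, against 6.78 and 6.64 in siD1+3A and 7.26 and 7.31 in siNTC-2, a difference of 0.63 ± 0.07 (adjusted p = 0.000123). Each partner was thus lower in the cells that had received its siRNA, with no overlap between the arrays. The depletion of both was partial on this platform: DNMT3B in siD1+3B was at 76.4% of siNTC-2, and DNMT3A in siD1+3A was at 67% of siNTC-2. DNMT3B in siD1+3A was at 115% of siNTC-2, a rise of 0.21 that passed the test (adjusted p = 0.0205), while against siNTC-1 the difference was -0.10 (adjusted p = 0.206).

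DNMT1 was 8.99 and 8.97 in siD1+3B, against 9.13 and 9.16 in siD1+3A and 9.98 and 9.99 in siNTC-2. This corresponds to 49.9% of siNTC-2 in siD1+3B and 55.9% in siD1+3A. The difference of -0.17 in DNMT1 was not past the threshold (95% interval -0.28 to -0.05, adjusted p = 0.143), though the arrays did not overlap. The lower DNMT1 value in siD1+3B stands beside every result of this comparison, and its part in them was not tested. DNMT3L was 6.08 and 5.74 in siD1+3B, against 5.91 and 5.87 in siD1+3A, with a difference of 0.02 (95% interval -0.23 to 0.27, adjusted p = 0.96).

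**Figure D1:**
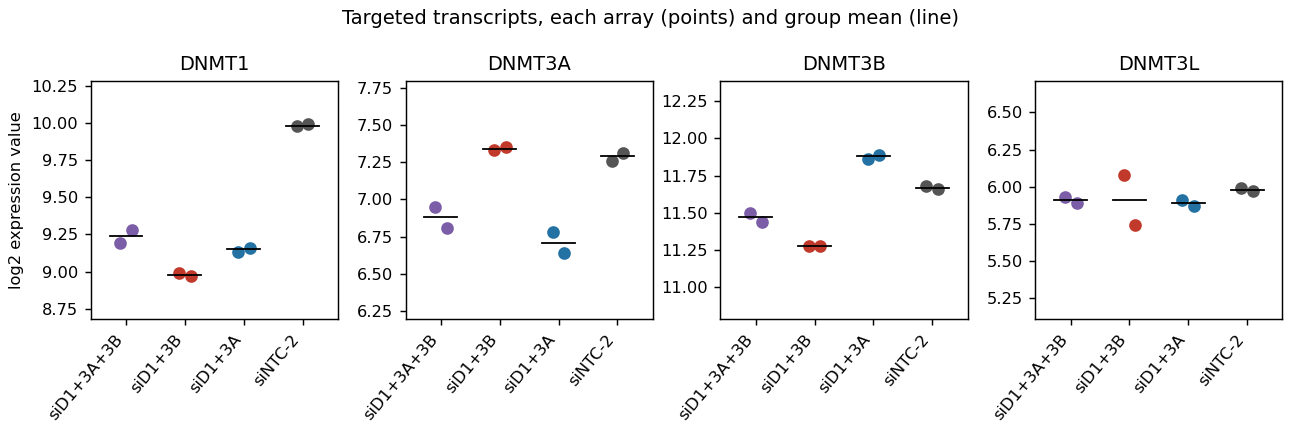
Log2 expression values of DNMT1, DNMT3A, DNMT3B and DNMT3L on each array (points) with the group mean (line) in siD1+3A+3B, siD1+3B, siD1+3A and siNTC-2; each panel has its own vertical range. DNMT3B is lower in siD1+3B than in siD1+3A, DNMT3A is lower in siD1+3A than in siD1+3B, and DNMT1 is lower in the 3 depletions than in siNTC-2.

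Few transcripts were called between the pairs, and most of their differences were small. With 2 arrays in each group, the number of calls does not say how many transcripts changed. Between siD1+3B and siD1+3A, 402 of 18417 genes (2.18%) were called, 146 higher in siD1+3B (0.793%) and 256 lower (1.39%). The arrays of the groups did not overlap for any of the 402, nor for 9075 genes in all (49.3%). An unadjusted p under 0.05 was given by 2644 genes. The median absolute difference of the called genes was 0.31, while 18 of them (0.0977% of all genes) reached 1.5-fold, 9 higher and 9 lower, and 1 reached 2-fold. For scale, siD1+3B against siNTC-2 gave 4599 called genes (25%, with 11.7% higher and 13.3% lower) and siD1+3A against siNTC-2 gave 4205 (22.8%, with 12% higher and 10.8% lower), 2 comparisons that share their control arrays. Against siNTC-1 they gave 7279 (39.5%) and 7660 (41.6%). The split of the calls between higher and lower depended on scaling, with 146 higher and 256 lower as deposited but 243 higher and 274 lower after quantile normalization.

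The number of called genes rests on single arrays. It was 166 without siD1+3B replicate 1, 103 without siD1+3B replicate 2, 155 without siD1+3A replicate 1 and 87 without siD1+3A replicate 2. In every one of these 4 fits, 64 genes were called (24 higher and 40 lower). With only the 4 arrays in the fit, 5 genes were called, namely ACTG2, DDIT4, DHRS2, PDZD4 and ZCCHC12. For the named genes described below, a call that was lost without an array is given with the value in that fit.

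**Figure D2:**
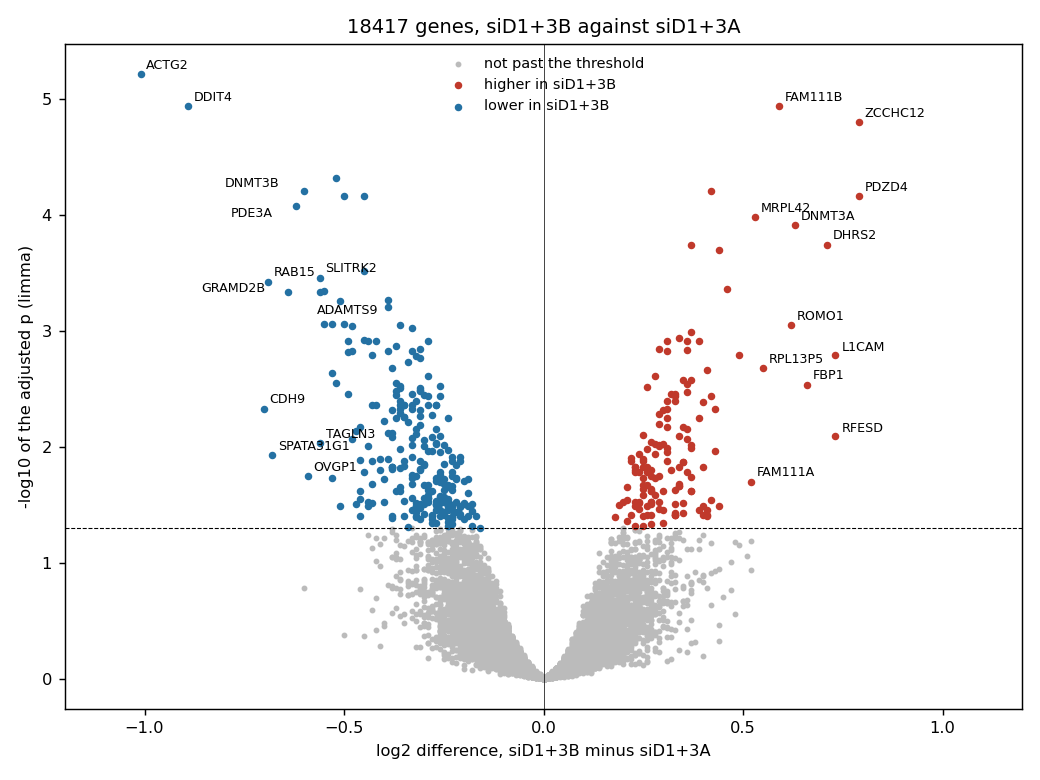
Difference of each of 18417 genes between siD1+3B and siD1+3A (horizontal, log2) against the minus log10 of the adjusted p from limma (vertical); the dashed line is the threshold. Most called genes lie within 0.5 of 0, and ACTG2 and DDIT4 fell furthest while PDZD4 and ZCCHC12 rose furthest.

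Among the largest rises in siD1+3B, DNMT3A itself left aside, were ZCCHC12 and L1CAM. ZCCHC12, a zinc finger co-activator expressed in the nervous system, was 9.82 and 9.76 in siD1+3B, against 9.01 and 9.0 in siD1+3A and 8.44 and 8.22 in siNTC-2. Its difference of 0.79 ± 0.07 is 1.73-fold (adjusted p = 1.6e-05). Both depletions thus lay above siNTC-2 for ZCCHC12, with siD1+3B the higher. Against siNTC-1 the differences were 0.95 in siD1+3B and 0.16 in siD1+3A, where the second missed the threshold (adjusted p = 0.0884). PDZD4, a PDZ domain protein, was 8.64 and 8.70 in siD1+3B, against 7.90 and 7.85 in siD1+3A and 7.58 and 7.44 in siNTC-2 (0.79 ± 0.08, 1.73-fold, adjusted p = 6.92e-05). L1CAM, the neural cell adhesion molecule that guides axon growth, was 7.35 and 7.18 in siD1+3B, against 6.53 and 6.55 in siD1+3A and 6.47 and 6.49 in siNTC-2. L1CAM rose by 0.73 ± 0.11 over siD1+3A (1.66-fold, adjusted p = 0.00162). Relative to siNTC-2, L1CAM rose by 0.79 in siD1+3B (adjusted p = 4.6e-05) and was 0.06 higher in siD1+3A, which was not past the threshold (adjusted p = 0.794). Against siNTC-1, L1CAM was higher in both, by 1.62 in siD1+3B and 0.90 in siD1+3A, and both passed it.

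DHRS2, a short-chain dehydrogenase, was 6.92 and 6.95 in siD1+3B, against 6.25 and 6.21 in siD1+3A and 6.05 and 5.82 in siNTC-2 (0.71 ± 0.08, adjusted p = 0.000182). FBP1, which encodes the gluconeogenic enzyme fructose-1,6-bisphosphatase, was 6.65 and 6.63 in siD1+3B, against 5.89 and 6.07 in siD1+3A (0.66 ± 0.11, adjusted p = 0.00293). Without siD1+3A replicate 1 the FBP1 difference was 0.57 and not called (adjusted p = 0.0549). ROMO1, a small protein of the inner mitochondrial membrane, and MRPL42, a subunit of the mitochondrial ribosome, were within 0.19 of siNTC-2 in siD1+3B and below it in siD1+3A. MRPL42 was 11.42 and 11.39 in siD1+3B, against 10.89 and 10.86 in siD1+3A and 11.39 and 11.40 in siNTC-2 (0.53 ± 0.06, adjusted p = 0.000106). ROMO1 was 10.01 and 9.96 in siD1+3B, against 9.32 and 9.42 in siD1+3A and 9.74 and 9.85 in siNTC-2 (0.62 ± 0.09, adjusted p = 0.000895). Against siNTC-1, ROMO1 was instead higher in both, by 1.17 in siD1+3B and 0.56 in siD1+3A, and MRPL42 lower in both, by -0.23 in siD1+3B and -0.76 in siD1+3A. The Rieske domain gene RFESD (difference 0.73, adjusted p = 0.00804) and the pseudogene RPL13P5 (0.55, adjusted p = 0.00211) also rose. RFESD was 6.25 and 6.26 in siD1+3B, against 5.59 and 5.47 in siD1+3A and 6.05 and 6.20 in siNTC-2, and it was not called without siD1+3B replicate 1 (0.73), siD1+3B replicate 2 (0.72) or siD1+3A replicate 2 (0.67). Against siNTC-1, RFESD differed by 0.92 in siD1+3B and by 0.19 in siD1+3A, where the second missed the threshold (adjusted p = 0.288). RPL13P5 may share probes with RPL13 and other copies, so its signal is uncertain.

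FAM111B and FAM111A, adjacent genes that encode related serine proteases, both rose in siD1+3B. In the exchange without a partner, described below, FAM111B was called higher (0.49) but FAM111A lower (-0.54). FAM111B was 9.57 and 9.56 in siD1+3B, against 8.96 and 8.98 in siD1+3A and 8.84 and 8.81 in siNTC-2 (0.59 ± 0.05, adjusted p = 1.16e-05). Against siNTC-1, FAM111B differed by 0.03 in siD1+3B (adjusted p = 0.702) and by -0.56 in siD1+3A (adjusted p = 1.77e-07). FAM111A, which acts at replication forks, was 7.0 and 7.07 in siD1+3B, against 6.47 and 6.55 in siD1+3A (0.52 ± 0.11, adjusted p = 0.0201). The FAM111A call was lost when any 1 of the 4 arrays was left out, with differences of 0.49 to 0.56. The paralogs are similar in sequence, and whether their probes share transcripts was not tested.

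The largest fall was that of ACTG2, the gamma actin of smooth muscle. ACTG2 was 6.88 and 6.89 in siD1+3B, against 7.87 and 7.92 in siD1+3A and 7.59 and 7.75 in siNTC-2. Its difference of -1.01 ± 0.08, 2.02-fold lower, was the only one past 2-fold (adjusted p = 6.17e-06). Relative to siNTC-2, ACTG2 fell by 0.79 in siD1+3B (adjusted p = 1.03e-06), while in siD1+3A it was 0.22 above it, which missed the threshold (adjusted p = 0.054). Against siNTC-1 it fell in both, by 1.58 in siD1+3B and 0.57 in siD1+3A. DDIT4, a stress-induced inhibitor of mTORC1, was 7.18 and 7.23 in siD1+3B, against 8.06 and 8.14 in siD1+3A and 9.46 and 9.54 in siNTC-2 (-0.89 ± 0.08, adjusted p = 1.16e-05). DDIT4 was thus below siNTC-2 in both depletions. Against siNTC-1, where it averaged 6.87, DDIT4 was higher in both, by 0.33 in siD1+3B and 1.23 in siD1+3A, so its direction relative to control turns with the control.

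CDH9, a classical cadherin of neurons, was 5.83 and 5.65 in siD1+3B, against 6.53 and 6.34 in siD1+3A and 6.07 and 5.83 in siNTC-2 (-0.70 ± 0.12, adjusted p = 0.00473). Relative to siNTC-2, CDH9 differed by -0.21 in siD1+3B and 0.48 in siD1+3A, where only the second was called. Against siNTC-1 it differed by -0.89 in siD1+3B and -0.19 in siD1+3A, where only the first was called. The CDH9 call between the pairs was lost without siD1+3B replicate 2 (-0.61) and without siD1+3A replicate 1 (-0.60). SLITRK2, a membrane protein that controls neurite outgrowth, was 6.82 and 6.84 in siD1+3B, against 7.41 and 7.37 in siD1+3A and 7.78 and 7.79 in siNTC-2 (-0.56 ± 0.07, adjusted p = 0.00035). RAB15, a small GTPase of endosomal recycling, was 8.08 and 8.04 in siD1+3B, against 8.70 and 8.79 in siD1+3A and 8.62 and 8.47 in siNTC-2 (-0.69 ± 0.09, adjusted p = 0.000378). TAGLN3, a calponin family protein of neurons, was 7.01 and 6.95 in siD1+3B, against 7.49 and 7.59 in siD1+3A (-0.56 ± 0.11, adjusted p = 0.00937). The TAGLN3 call was lost without siD1+3B replicate 1 (-0.59), siD1+3B replicate 2 (-0.54) or siD1+3A replicate 2 (-0.51).

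PDE3A, a phosphodiesterase that breaks down cyclic AMP, was 8.50 and 8.43 in siD1+3B, against 9.06 and 9.11 in siD1+3A and 9.28 and 9.32 in siNTC-2 (-0.62 ± 0.07, adjusted p = 8.45e-05). ADAMTS9, a secreted metalloprotease, was 8.64 and 8.49 in siD1+3B, against 9.14 and 9.11 in siD1+3A and 8.73 and 8.74 in siNTC-2 (-0.56 ± 0.07, adjusted p = 0.000464). GRAMD2B was 7.51 and 7.59 in siD1+3B, against 8.22 and 8.16 in siD1+3A and 7.58 and 7.50 in siNTC-2 (-0.64 ± 0.08, adjusted p = 0.000464). ADAMTS9, GRAMD2B and TAGLN3 were higher than siNTC-2 in siD1+3A, by 0.39, 0.65 and 0.73, and these rises passed the test. Against siNTC-1 the differences of these genes in siD1+3A were -0.25, 0.44 and 0.09, so the direction of ADAMTS9 turned and TAGLN3 was not called (adjusted p = 0.522). PDE3A and SLITRK2 were instead below siNTC-2 in both depletions, PDE3A by -0.83 in siD1+3B and -0.21 in siD1+3A, and SLITRK2 by -0.95 and -0.39 in the same order. Against siNTC-1, PDE3A differed by -0.62 in siD1+3B and 0.01 in siD1+3A (adjusted p = 0.959), and SLITRK2 by -0.27 in siD1+3B and 0.29 in siD1+3A, where its direction turned. OVGP1, an oviductal glycoprotein, and SPATA31G1 had differences of -0.59 (adjusted p = 0.018) and -0.68 (adjusted p = 0.0119). SPATA31G1 was not called when any 1 of the 4 arrays was left out (-0.72 to -0.65), and its other row on the array gave -0.06 (adjusted p = 0.875). OVGP1 was not called without siD1+3B replicate 1 (-0.46), siD1+3A replicate 1 (-0.66) or siD1+3A replicate 2 (-0.53).

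**Figure D3:**
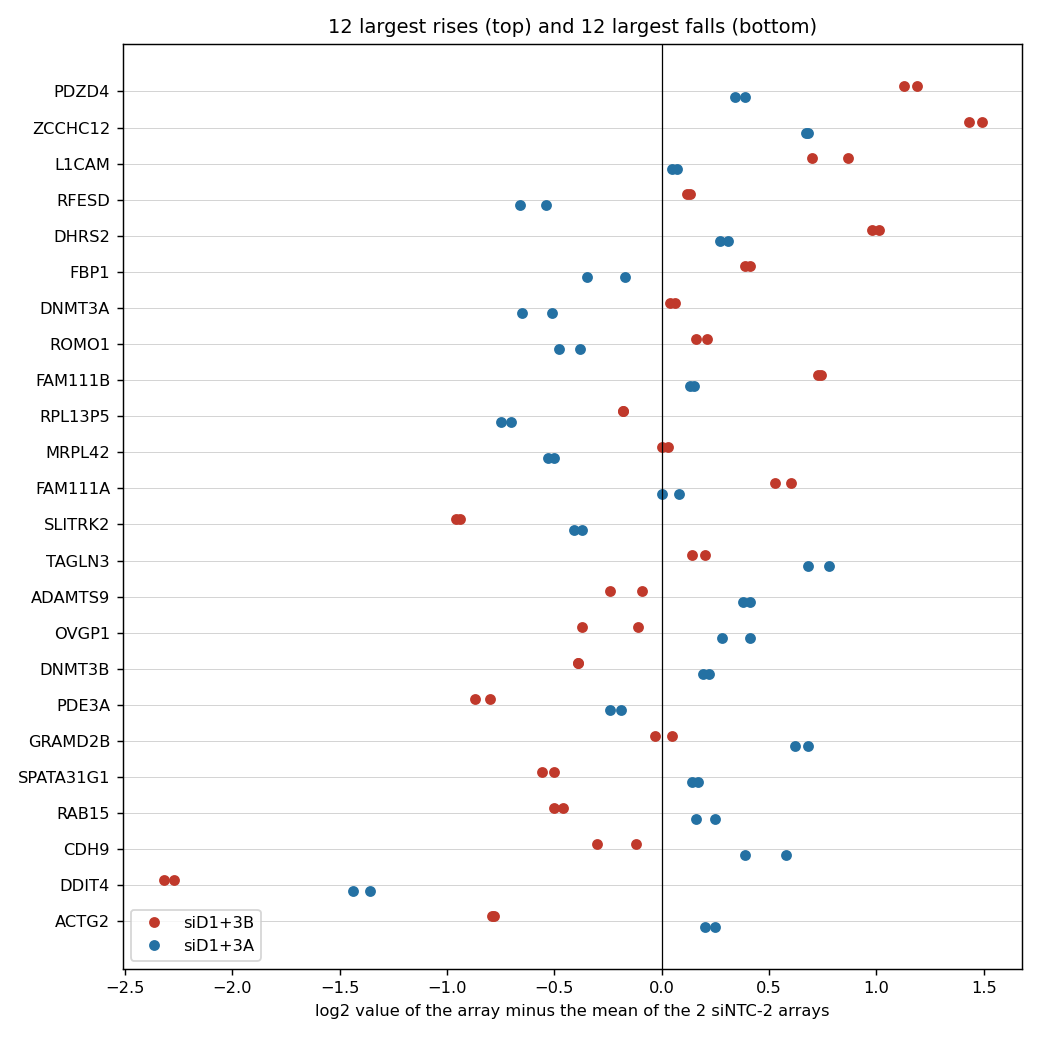
Log2 value of each array minus the mean of the 2 siNTC-2 arrays, for the 12 largest rises (upper rows) and 12 largest falls (lower rows) in siD1+3B (red) against siD1+3A (blue). The arrays of siD1+3B and siD1+3A do not overlap for any of the 24, and both depletions lie below siNTC-2 for DDIT4, PDE3A and SLITRK2.

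Promoter sequences are shown for 4 genes that were called the same way in all 3 exchanges of DNMT3B for DNMT3A described below, 2 that rose and 2 that fell, because CG dinucleotides are the substrate of these enzymes. Each is the 250 bases upstream of the annotated start on the gene's own strand, from RefSeq on build GRCh38.p14, with every CG in capitals. ZCCHC12 lies at chrX:118823574-118823823 (plus strand), L1CAM at chrX:153875945-153876194 (minus strand), ACTG2 at chr2:73892758-73893007 (plus strand) and CDH9 at chr5:27038587-27038836 (minus strand).
ZCCHC12: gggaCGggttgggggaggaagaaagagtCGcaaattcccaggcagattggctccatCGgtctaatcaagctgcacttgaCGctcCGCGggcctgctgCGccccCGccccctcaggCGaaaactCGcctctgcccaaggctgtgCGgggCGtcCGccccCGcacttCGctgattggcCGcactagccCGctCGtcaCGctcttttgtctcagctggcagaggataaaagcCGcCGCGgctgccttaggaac
L1CAM: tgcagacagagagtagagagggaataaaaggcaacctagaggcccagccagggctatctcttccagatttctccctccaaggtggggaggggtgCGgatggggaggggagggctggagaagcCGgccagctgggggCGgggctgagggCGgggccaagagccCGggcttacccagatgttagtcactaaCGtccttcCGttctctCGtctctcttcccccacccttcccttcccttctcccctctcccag
ACTG2: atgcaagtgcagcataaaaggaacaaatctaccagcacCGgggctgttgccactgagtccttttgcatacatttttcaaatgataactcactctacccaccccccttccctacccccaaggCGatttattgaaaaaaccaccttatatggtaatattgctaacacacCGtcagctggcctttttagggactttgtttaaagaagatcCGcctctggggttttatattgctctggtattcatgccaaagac
CDH9: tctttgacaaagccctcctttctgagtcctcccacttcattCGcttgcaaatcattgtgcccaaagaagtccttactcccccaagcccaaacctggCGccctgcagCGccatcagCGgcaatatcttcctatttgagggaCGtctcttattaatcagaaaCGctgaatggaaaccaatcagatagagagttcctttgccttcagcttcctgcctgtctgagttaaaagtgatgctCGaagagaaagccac
The ZCCHC12 window holds 22 CG dinucleotides, that of L1CAM holds 8, that of CDH9 holds 7 and that of ACTG2 holds 4. At least 1 CG was found in 97% of the 14237 promoters of measured genes with an entry in the table. CG reads the same on both strands and overlaps no other motif searched here. These counts describe the sequence only and say nothing of its methylation in these cells.

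Gene lists were then examined: 34 lists held 777 genes, of which 696 were measured. Of those, 48 were called (16 higher and 32 lower), or 6.9% against 2.18% of all genes, but the lists had been chosen with earlier results of these data known, and this share is no independent evidence. Across the lists and the largest changes, 67 called genes were named by the rule given under the processing, and 27 of these were called whichever of the 4 arrays was left out.

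Genes of neural tissue moved in both directions. In the neuroectoderm list, 1 of 18 measured genes rose (DCX) and 3 fell (OTX2, MAP2 and STMN2), or 22.2% against 2.18% of all genes. The list's median was 0.04 where that of all genes was 0. OTX2, a homeobox factor of forebrain and pluripotent cells, was 10.26 and 10.31 in siD1+3B, against 10.59 and 10.61 in siD1+3A and 10.95 and 10.95 in siNTC-2 (-0.32 ± 0.05, adjusted p = 0.00167). MAP2, which binds microtubules in dendrites, was 7.51 and 7.40 in siD1+3B, against 7.87 and 7.93 in siD1+3A and 8.33 and 8.23 in siNTC-2 (-0.44 ± 0.09, adjusted p = 0.0099). Both genes thus lay below siNTC-2 in both depletions, with siD1+3B the lower, and they were below siNTC-1 as well. STMN2, a microtubule regulator of growth cones, differed by -0.26 (adjusted p = 0.00301), and DCX, a microtubule protein of migrating neurons, by 0.28 (adjusted p = 0.0263). The call of MAP2 was lost without siD1+3B replicate 2 (-0.39), siD1+3A replicate 1 (-0.47) or siD1+3A replicate 2 (-0.41). STMN2 lost its call without siD1+3A replicate 2 (-0.25), and DCX without siD1+3B replicate 1 (0.20), siD1+3A replicate 1 (0.30) or siD1+3A replicate 2 (0.27). OTX2 was called whichever of the 4 arrays was left out.

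Among axon guidance and synapse adhesion genes, 4 of 29 measured (13.8%, against 2.18% of all genes) fell and none rose (median -0.03). They were the semaphorin co-receptor NRP2 (-0.43), the teneurin TENM3 (-0.35), the latrophilin ligand FLRT3 (-0.38) and the contactin CNTN1 (-0.36), with adjusted p from 0.00437 to 0.024. NRP2 was 5.40 and 5.49 in siD1+3B, against 5.86 and 5.88 in siD1+3A. CNTN1 was 7.11 and 7.04 in siD1+3B, against 7.42 and 7.45 in siD1+3A. NRP2 and CNTN1 were not called when any 1 of the 4 arrays was left out (-0.47 to -0.38 and -0.39 to -0.32). TENM3 was not called without siD1+3B replicate 2 (-0.30) or siD1+3A replicate 2 (-0.35), nor FLRT3 without siD1+3B replicate 1 (-0.30) or siD1+3A replicate 1 (-0.34).

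Of 23 measured genes of the actin cytoskeleton and muscle, 3 (13%, against 2.18% of all genes) fell and none rose (median -0.04). Beside ACTG2 these were ACTN3, an alpha actinin of fast muscle fibres (-0.47, adjusted p = 0.0073), and the tropomyosin TPM1 (-0.24, adjusted p = 0.022). The cytoplasmic and muscle actins other than ACTG2 were not called. ACTN3 lost its call without siD1+3B replicate 2 (-0.39) or siD1+3A replicate 2 (-0.44), and TPM1 without siD1+3B replicate 2 (-0.18), siD1+3A replicate 1 (-0.28) or siD1+3A replicate 2 (-0.21).

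Among 27 measured genes of the extracellular matrix, 3 fell (FBN1, SPARC and LAMA1) and 1 rose (TNC), or 14.8% against 2.18% of all genes. The list's median was -0.08. FBN1, the microfibril protein fibrillin, was 6.39 and 6.32 in siD1+3B, against 6.83 and 6.85 in siD1+3A and 6.66 and 6.70 in siNTC-2 (-0.48 ± 0.07, adjusted p = 0.00149). TNC, the matrix glycoprotein tenascin C, was above siNTC-2 in both depletions, by 1.25 in siD1+3B and by 0.98 in siD1+3A, and its difference was 0.27 (adjusted p = 0.018). SPARC, a collagen-binding matrix protein, differed by -0.31, and LAMA1, a laminin chain of basement membranes, by -0.27. TNC was not called when any 1 of the 4 arrays was left out (0.26 to 0.28), SPARC was not without siD1+3B replicate 2 (-0.28) or siD1+3A replicate 1 (-0.28), and LAMA1 was not without siD1+3B replicate 1 (-0.28), siD1+3B replicate 2 (-0.25) or siD1+3A replicate 2 (-0.21).

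In the retinoic acid pathway 2 of 18 measured genes rose and 1 fell (median 0.01), or 16.7% called against 2.18% of all genes. CRABP2, which carries retinoic acid to its nuclear receptors, was 6.63 and 6.61 in siD1+3B, against 7.14 and 7.20 in siD1+3A and 7.30 and 7.19 in siNTC-2 (-0.55 ± 0.08, adjusted p = 0.000876). STRA6, the membrane receptor for retinol binding protein, was 9.07 and 9.13 in siD1+3B, against 8.72 and 8.64 in siD1+3A and 8.74 and 8.86 in siNTC-2 (0.42 ± 0.07, adjusted p = 0.00368). The uptake receptor was thus higher and the intracellular carrier lower in siD1+3B. Against siNTC-1, STRA6 was higher in both depletions, by 1.12 in siD1+3B and 0.70 in siD1+3A. The nuclear receptor RXRG differed by 0.35 (adjusted p = 0.0135). STRA6 lost its call without siD1+3B replicate 2 (0.39) or siD1+3A replicate 2 (0.38), and RXRG when any 1 of the 4 arrays was left out (0.33 to 0.38).

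In the hedgehog pathway 2 of 15 measured genes fell, or 13.3% called against 2.18% of all genes. They were HHIP, which binds and sequesters the ligand (-0.35, adjusted p = 0.0148), and GLI3, a transcription factor that mostly represses targets (-0.32, adjusted p = 0.007). HHIP was below siNTC-2 in both depletions, by -2.04 in siD1+3B and -1.70 in siD1+3A, and below siNTC-1 by -1.19 and -0.85 in the same order. The list did not move in the same direction in 3B+3L against 3A+3L. There 3 of its 15 genes were higher and 1 lower, with differences from -0.33 to 1.08. GLI3 was not called when any 1 of the 4 arrays was left out (-0.34 to -0.31), and HHIP was not without siD1+3B replicate 1 (-0.38), siD1+3B replicate 2 (-0.31) or siD1+3A replicate 2 (-0.27).

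Transcription factors and surface genes that mark early lineages held few calls in number. The called share was 14.3% of the trophoblast list, 5% of the core pluripotency list and 0% of the mesoderm and endoderm list, against 2.18% of all genes. TFAP2A, a factor of trophoblast and neural crest, was 11.42 and 11.45 in siD1+3B, against 11.74 and 11.73 in siD1+3A and 12.44 and 12.47 in siNTC-2 (-0.31 ± 0.05, adjusted p = 0.0033). ZEB2, a repressor of E-cadherin, was 8.97 and 8.97 in siD1+3B, against 9.34 and 9.33 in siD1+3A and 10.01 and 10.05 in siNTC-2 (-0.36 ± 0.05, adjusted p = 0.000895). Both thus lay below siNTC-2 in both depletions, and below siNTC-1 as well. Of 20 measured core pluripotency genes, 1 was called, L1TD1, an RNA-binding protein of embryonic stem cells (0.24, adjusted p = 0.0117), and the list's differences ranged from -0.29 to 0.24. L1TD1 lost its call when any 1 of the 4 arrays was left out (0.22 to 0.26). Of 14 measured trophoblast genes, 2 fell, TFAP2A and MSX2 (-0.38), and MSX2 lost its call when any 1 of the 4 arrays was left out (-0.42 to -0.33). Of 10 measured fibroblast markers 1 was called, THY1 (0.37), which was not called when any 1 of the 4 arrays was left out (0.32 to 0.41). The mean of the fibroblast list was 5.38 and 5.42 in siD1+3B, against 5.32 and 5.30 in siD1+3A, and the part of other cells in these results was not tested.

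In the methylation machinery list, 2 of 23 measured genes rose, DNMT3A and HELLS, and DNMT3B fell, or 13% called against 2.18% of all genes. HELLS, a chromatin remodeller needed for methylation of repeats, was 11.22 and 11.12 in siD1+3B, against 10.86 and 10.85 in siD1+3A and 10.93 and 10.81 in siNTC-2 (0.31 ± 0.06, adjusted p = 0.0103). It was not called without siD1+3B replicate 1 (0.26), siD1+3A replicate 1 (0.32) or siD1+3A replicate 2 (0.31). UHRF1, UHRF2, the TET enzymes and TDG were measured and not called.

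Signalling lists held few calls in number. The called share was 9.09% of the interferon response list, 13.6% of the ERK list and 4% of the Nodal and TGF-beta list, against 2.18% of all genes. Of 22 measured interferon response genes, the adjacent and related IFITM1 and IFITM3 fell (-0.33 and -0.44). IFITM3, a membrane protein that blocks virus entry, was 10.46 and 10.41 in siD1+3B, against 10.91 and 10.84 in siD1+3A. In the list of ERK feedback and immediate-early genes 2 of 22 rose, FOS (0.33) and PHLDA1 (0.29), and ETV5 fell (-0.20). All 3 lost their calls when any 1 of the 4 arrays was left out, with differences of 0.27 to 0.39 for FOS, 0.25 to 0.33 for PHLDA1 and -0.22 to -0.18 for ETV5. ID3, an inhibitor of basic helix-loop-helix factors and a target of BMP signals, was the 1 call among 25 Nodal and TGF-beta genes. It was 10.19 and 10.16 in siD1+3B, against 9.86 and 9.75 in siD1+3A (0.37, adjusted p = 0.00266), and was not called without siD1+3A replicate 2 (0.32).

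Among cell cycle genes the calls were few in number. The called share was 7.5% of the replication-dependent histones, 8.33% of the mitosis list and 0% of the DNA replication list, against 2.18% of all genes. Of 40 measured replication-dependent histones 2 rose, H4C8 (0.34) and H2BC11 (0.31), and H3C11 fell (-0.46); copies of these genes share sequence, so they are uncertain. H2BC11 lost its call without siD1+3B replicate 2 (0.29), siD1+3A replicate 1 (0.31) or siD1+3A replicate 2 (0.30), and H3C11 when any 1 of the 4 arrays was left out (-0.52 to -0.39). Of 24 mitosis genes HMMR rose (0.27) and TPX2, a spindle assembly factor, fell (-0.26). HMMR was not called when any 1 of the 4 arrays was left out (0.25 to 0.29), and TPX2 was not without siD1+3B replicate 2 (-0.26) or siD1+3A replicate 2 (-0.27). Single calls were made in the Wnt list (SFRP2, 0.21), the hypoxia list (AK4, 0.36) and the p53 list (TP53INP1, -0.35). SFRP2 (0.20 to 0.22) and AK4 (0.35 to 0.37) were not called when any 1 of the 4 arrays was left out, and TP53INP1 was not without siD1+3B replicate 2 (-0.30), siD1+3A replicate 1 (-0.38) or siD1+3A replicate 2 (-0.33).

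No member was called in 13 lists with 231 measured genes, by limma with adjustment over all genes, and 24 of those genes had an unadjusted p under 0.05. Only 2.18% of all genes were called, so a short list may hold no call at that share. The absence of calls therefore says little about any 1 list. These lists included the piRNA and germ cell genes (21 measured), meiosis (19), cancer-testis antigens (14), imprinted genes (21), clustered protocadherins (22), DNA replication (31), cholesterol synthesis (18) and ribosomal proteins (22). The differences of the germ cell list ranged from -0.26 to 0.26 and those of the imprinted list from -0.21 to 0.14. Among the ribosomal protein genes, which serve as a sign of RNA quality, 0 had an unadjusted p under 0.05 and the range was -0.10 to 0.10.

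The integrated stress response is the programme by which the kinase-induced factor ATF4 raises amino acid supply and CHOP. Between the pairs with DNMT1 siRNA, 5 of 26 measured members (19.2%, against 2.18% of all genes) fell and none rose (median -0.07). Beside DDIT4 they were SLC7A5, a leucine transporter (-0.45), DDIT3, which encodes CHOP (-0.38), SESN2, an inhibitor of mTORC1 (-0.49), and CHAC1, which degrades glutathione (-0.51). SLC7A5 was 8.81 and 8.75 in siD1+3B, against 9.17 and 9.29 in siD1+3A and 10.62 and 10.70 in siNTC-2. DDIT3 was 8.50 and 8.59 in siD1+3B, against 8.88 and 8.98 in siD1+3A and 10.31 and 10.24 in siNTC-2. CHAC1 was 9.20 and 9.21 in siD1+3B, against 9.67 and 9.76 in siD1+3A and 11.16 and 11.25 in siNTC-2. Both depletions were below siNTC-2 for these genes. Against siNTC-2, 25 of 26 members fell in siD1+3B (median -1.15) and 25 of 26 in siD1+3A (median -1.06). Against siNTC-1 the medians of the list were 0.15 in siD1+3B and 0.27 in siD1+3A, so the direction of the list relative to control turns with the control; siNTC-2 lay above siNTC-1 by a median of 1.27. DDIT3 lost its call without siD1+3A replicate 2 (-0.34), SESN2 without siD1+3B replicate 2 (-0.44) or siD1+3A replicate 2 (-0.45), and CHAC1 when any 1 of the 4 arrays was left out (-0.56 to -0.46). Of 19 endoplasmic reticulum chaperones and folding factors 1 fell, HERPUD1, which serves degradation of misfolded proteins (-0.39, adjusted p = 0.00149).

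The same exchange of DNMT3B siRNA for DNMT3A siRNA was made on other arrays, which allows each called gene to be looked up where it was not chosen. All exchanges were tested in 1 fit with 1 shared estimate of the spread per gene, so their calls are not independent of each other. Beside DNMT3L siRNA, 3B+3L against 3A+3L gave 3152 called genes (17.1%), 9.96% higher and 7.15% lower. Without a partner, siDNMT3B minus siNTC-1 against siDNMT3A minus siNTC-2 gave 3396 (18.4%), 8.93% higher and 9.51% lower. In that last contrast each depletion was set against the control on its own side of the first principal component, a choice made with earlier results known. The ribosomal protein list, a sign of RNA quality, moved in that contrast (5 of 22 fell, median -0.18), and its part in the calls was not tested. Set directly against siDNMT3A, with no control, siDNMT3B gave 8240 called genes (44.7%), a comparison between arrays on different sides of the first principal component. DNMT3B differed by -0.60, -0.74 and -1.12 in the exchange beside DNMT1, beside DNMT3L and alone, and DNMT3A by 0.63, 0.46 and 0.52.

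Of the 402 genes called beside DNMT1, 347 (86.3%) had the same sign in the exchange without a partner, against 57.2% of all genes, and 355 (88.3%) did with no control, against 60.6% of all genes. Beside DNMT3L, 271 (67.4%) had the same sign, against 50.9% of all genes. Called the same way were 260 of the 402 (64.7%, and 7.66% of the 3396) without a partner and 145 (36.1%, and 4.6% of the 3152) beside DNMT3L. Called the opposite way were 17 (4.23%) without a partner and 44 (10.9%) beside DNMT3L. Over the 402 genes the differences correlated at 0.73 with those without a partner and at 0.31 with those beside DNMT3L. Over all genes these correlations were 0.3 and 0.07. They describe genes measured on the same arrays, which are not independent replicates.

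In all 3 exchanges 125 genes were called the same way, 60 higher and 65 lower, or 0.679% of all genes. The count was 57 without siD1+3B replicate 1, 39 without siD1+3B replicate 2, 44 without siD1+3A replicate 1 and 34 without siD1+3A replicate 2. With any 1 of the other 12 arrays left out it was 97 to 134. With each exchange fitted on its own groups only, 2 genes were called the same way in all 3. Among the largest changes, the 125 took in ZCCHC12, L1CAM, FBP1, ROMO1, RPL13P5 and MRPL42 among the rises. They took in ACTG2, CDH9, RAB15, GRAMD2B, ADAMTS9 and TAGLN3 among the falls, beside DNMT3A and DNMT3B. ACTG2 differed by -1.01 beside DNMT1, -1.28 beside DNMT3L and -2.63 alone. L1CAM differed by 0.73, 0.77 and 1.58 in the same order, and CDH9 by -0.70, -1.0 and -2.63. Without any control, siDNMT3B minus siDNMT3A was -1.83 for ACTG2, 0.74 for L1CAM and -1.95 for CDH9, so the larger value of L1CAM without a partner rests on the difference between the controls. With no control in the exchange without a partner, 110 genes were called the same way in all 3, of which 98 were among the 125. ROMO1 (-0.38), RPL13P5 (-0.56) and TAGLN3 (0.05) were not among them, since their signs were opposite there. Of the neural genes, OTX2 (-0.32, -0.23 and -1.39), STMN2 (-0.26, -0.47 and -1.31) and MAP2 (-0.44, -0.48 and -2.25) were also called in all 3. FBP1, CDH9, TAGLN3, STMN2 and MAP2 carry the limits given above for single arrays.

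ACTG2 and L1CAM show the pattern over groups. ACTG2 averaged 6.57 in siDNMT3B, 6.42 in 3B+3L and 6.88 in siD1+3B, against 8.40 in siDNMT3A, 7.70 in 3A+3L and 7.90 in siD1+3A. ACTG2 was 7.67 in siNTC-2 and 8.47 in siNTC-1. L1CAM averaged 7.21 in siDNMT3B, 7.29 in 3B+3L and 7.27 in siD1+3B, against 6.47 in siDNMT3A, 6.52 in 3A+3L and 6.54 in siD1+3A, with 6.48 in siNTC-2 and 5.64 in siNTC-1. Groups with DNMT3B siRNA but not DNMT3A siRNA thus had lower ACTG2 and higher L1CAM than their DNMT3A counterparts. Where both were targeted without DNMT1 siRNA (3A+3B), ACTG2 averaged 7.68 and L1CAM 6.56.

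**Figure D4:**
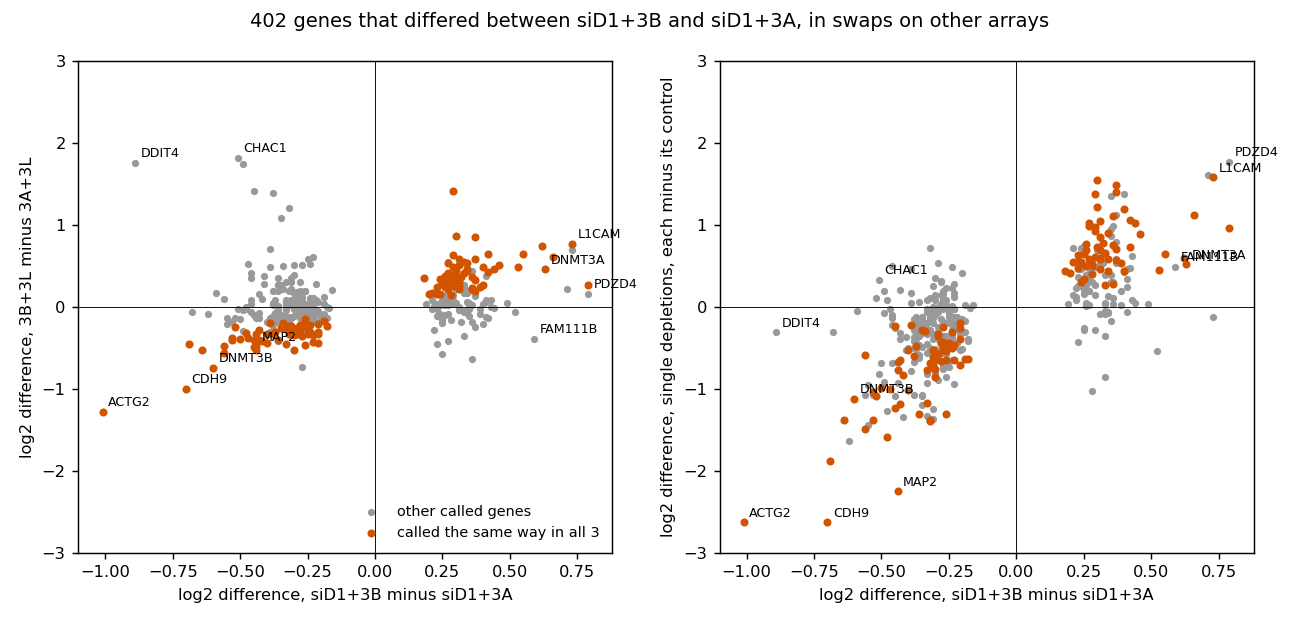
The 402 genes called between siD1+3B and siD1+3A, with that difference (horizontal, log2) against the difference on other arrays (vertical, log2), beside DNMT3L siRNA (left) and for the single depletions each minus its control (right). The 125 genes called the same way in all 3 are orange; 86.3% of the points share their sign on the right and 67.4% on the left, where DDIT4 and CHAC1 stand apart with opposite signs.

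Some genes differed with the partner in another way beside DNMT1 than beside DNMT3L. The difference between the exchanges, an interaction tested by limma, was called for 1646 genes (8.94%), 561 higher (3.05%) and 1085 lower (5.89%). With 1 of the 8 arrays left out it was called for 954 to 1495 genes, the fewest without siD1+3A replicate 2. FAM111B differed by 0.59 beside DNMT1 and by -0.39 beside DNMT3L (interaction 0.98 ± 0.07, adjusted p = 9.78e-08). PDZD4 (0.79 and 0.16, interaction 0.63, adjusted p = 0.00275) and ZCCHC12 (0.79 and 0.27, interaction 0.52, adjusted p = 0.00371) rose more beside DNMT1. PDE3A (-0.62 and -0.08, interaction adjusted p = 0.00149) and SLITRK2 (-0.56 and 0.10, interaction adjusted p = 0.000326) fell beside DNMT1 and were not called lower beside DNMT3L. The direction beside DNMT1 was not particular to it, since these genes were called the same way without a partner. There the differences were 0.49 for FAM111B, 1.77 for PDZD4, 0.96 for ZCCHC12, -1.63 for PDE3A and -1.08 for SLITRK2. With no control in that exchange the signs were the same.

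The stress genes were on opposite sides. Beside DNMT3L, 25 of 26 measured genes of the integrated stress response were higher in 3B+3L than in 3A+3L (median 1.05), where 5 fell and none rose beside DNMT1. The interaction was called lower for 25 of the 26 (median -1.09). DDIT4 averaged 9.42 in 3B+3L and 7.67 in 3A+3L, a difference of 1.76, against -0.89 beside DNMT1 (interaction -2.65 ± 0.11, adjusted p = 7.1e-11). The mean of the list was 9.04 and 9.04 in siD1+3B, against 9.18 and 9.21 in siD1+3A, while over the 26 arrays it ranged from 8.5 to 10.3. Cholesterol synthesis genes were not called beside DNMT1 (0 of 18, median 0.05) and fell beside DNMT3L (15 of 18, median -0.39), with the interaction called higher for 14. The control groups differed in the same directions, with siNTC-2 minus siNTC-1 at a median of 1.27 for the stress list and -0.38 for cholesterol synthesis. Whether these differences reflect the exchange or what sets the controls apart was not tested. The part of these genes in the other differences between the exchanges was not tested either.

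**Figure D5:**
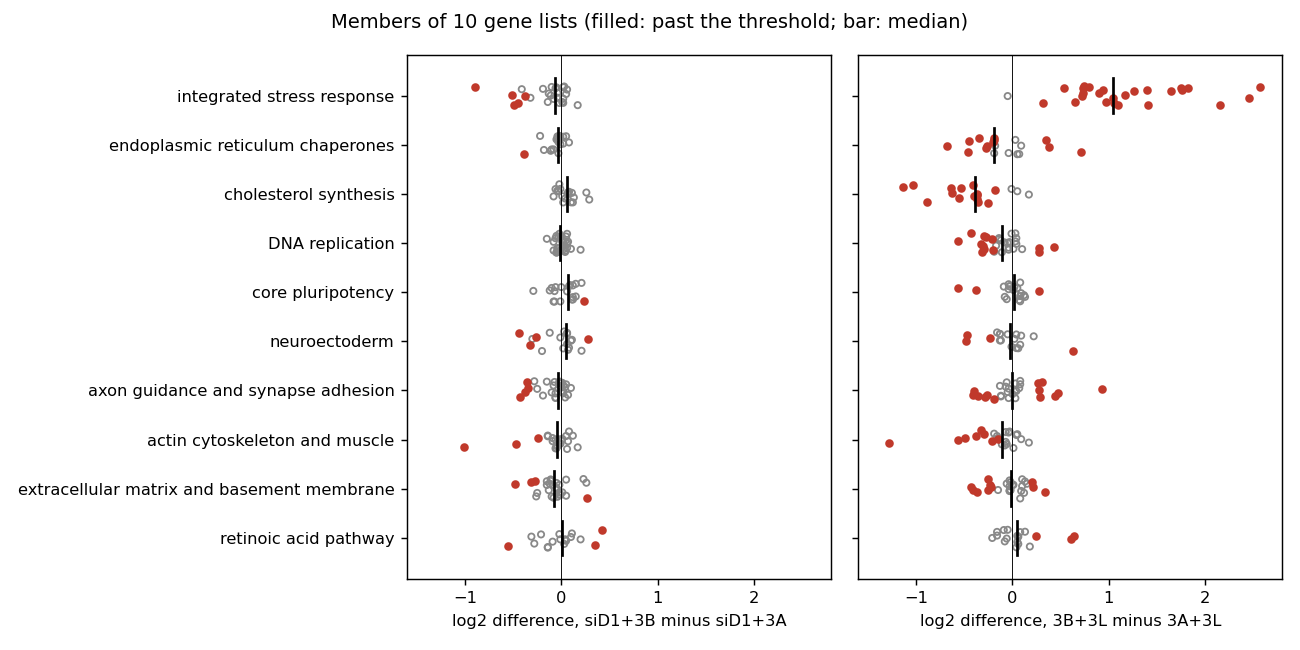
Differences of the measured members of 10 gene lists for siD1+3B minus siD1+3A (left) and 3B+3L minus 3A+3L (right), in log2; filled points passed the threshold and the bar is the list's median. The integrated stress response list has a median of -0.07 on the left and 1.05 on the right, and the cholesterol synthesis list 0.05 and -0.39.

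Adding the missing siRNA to either pair gives the triple depletion siD1+3A+3B, which shares arrays with the comparison above. Against siD1+3A it differed at 105 genes (0.57%), 33 higher (0.179%) and 72 lower (0.391%), and against siD1+3B at 556 genes (3.02%), 246 higher (1.34%) and 310 lower (1.68%). Without any 1 of the 4 arrays of each comparison these counts were 13 to 30 and 114 to 165. Of 26 measured genes of the integrated stress response, 10 were higher in the triple depletion than in siD1+3A (median 0.27). Against siD1+3B 17 of them were higher (median 0.39), and none was called lower in either comparison. DDIT4 was 0.80 above siD1+3A and 1.70 above siD1+3B. PDZD4 in the triple depletion differed by 0.00 from siD1+3A and by -0.80 from siD1+3B, and ZCCHC12 by -0.02 and -0.81. L1CAM was 0.22 above siD1+3A (adjusted p = 0.464) and -0.51 from siD1+3B (adjusted p = 0.0184). ACTG2 averaged 7.53 in the triple depletion, -0.37 from siD1+3A (adjusted p = 0.0439) and 0.64 from siD1+3B (adjusted p = 0.000199). ZCCHC12 and PDZD4 were thus within 0.02 of siD1+3A, while ACTG2 lay between the pairs. DNMT3B in the triple depletion was less depleted than in siD1+3B, at 11.50 and 11.44 against 11.28 and 11.28, a difference that missed the threshold (adjusted p = 0.122). DNMT1 was less depleted as well, by 0.26 relative to siD1+3B, which passed the limma test (adjusted p = 0.0155). Relative to siD1+3A, DNMT1 differed by 0.09 (adjusted p = 0.554) and DNMT3A by 0.17 (adjusted p = 0.342). The part of these levels in the differences of the triple depletion was not tested.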

How the data were processed

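The deposited values are log2 expression values, 1 column per array, taken as the authors' own; the log base was inferred from their range (3.04 to 14.87). Per the labels' protocols, biotin-labelled cDNA was made from total RNA extracted with Trizol. The submitters' processing notes name Partek only, and neither labels nor headers state how background and normalization were handled. No label names a batch. Rows with 1 gene symbol were kept (19460 of 33297), with the highest-mean row per gene, leaving 18417 genes, and names were checked against RefSeq GRCh38.p14 (19429 rows matched).

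With limma 3.58.1 (R 4.3.3), lmFit and eBayes estimated 13 group means from the 26 arrays, with 13 residual degrees of freedom. Tests are two-sided and were tested on simulated data. No filter on low values was applied. The comparison and the gene lists were chosen with earlier results of these data known. Named genes are the 12 largest rises and falls among called genes with arrays that do not overlap, the 4 DNMT genes, up to 4 members per list with the smallest adjusted p, and the 3 largest interactions in each direction; further members appear where a count is 5 or fewer and were chosen after their values were seen. Replicate numbers were not used to pair samples. The correlation of duplicate differences was -0.01 between siD1+3B and siD1+3A. Over 78 pairs of groups it was -0.26 to 0.19, with 9 pairs over 0.1, and the lowest value was that of 3B+3L with 3A+3L. Whether some groups share a replicate structure is not stated in the labels.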

Additional observations from a re-analysis of the deposited data

Results flagged for a closer look

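The difference between the exchanges beside DNMT1 and beside DNMT3L was called at 1646 genes, by the interaction test of limma. These differences of differences are (siD1+3B minus siD1+3A) minus (3B+3L minus 3A+3L) on the log2 scale. Among the largest changes of the comparison, they were positive for FAM111B (0.98), PDZD4 (0.63), FAM111A (0.59), ZCCHC12 (0.52) and DHRS2 (0.49). They were negative for DDIT4 (-2.65), OVGP1 (-0.76), SLITRK2 (-0.66) and PDE3A (-0.55). Without a partner, FAM111B, PDZD4, ZCCHC12, DHRS2, SLITRK2 and PDE3A were called in the same direction as beside DNMT1. In that exchange FAM111A was called in the opposite direction, and DDIT4 and OVGP1 were not called. The 3 most positive of all genes were the small nucleolar RNA SNORD14E (1.32), the cholesterol synthesis enzyme HMGCS1 (1.24) and the spliceosomal RNU5D-1 (1.18). The 3 most negative were INHBE (-2.98), GDF15 (-2.70) and DDIT4. INHBE averaged 8.86 in 3B+3L and 6.28 in 3A+3L, GDF15 averaged 8.28 in 3B+3L and 5.69 in 3A+3L, and HMGCS1 averaged 10.06 in 3B+3L and 11.20 in 3A+3L, so much of each interaction lay beside DNMT3L. The control groups also differed at these genes. Their difference, siNTC-2 minus siNTC-1, was 2.97 for INHBE, 2.09 for GDF15 and 2.63 for DDIT4. It was -2.55 for SNORD14E, -1.09 for HMGCS1 and -0.77 for RNU5D-1. Each has the sign of 3B+3L minus 3A+3L for that gene. Whether the interactions reflect the exchange or what sets the controls apart was not tested.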

How the results depend on the processing

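The number of genes called between siD1+3B and siD1+3A (402) was 699 without the dimmest 40% of genes, 678 with a trended and robust variance prior, 1011 with array weights, 5 with only the 4 arrays in the fit, 18 with a minimum of 1.5-fold and 87 to 166 with 1 of the 4 arrays left out. For 3B+3L against 3A+3L it was 1940 with only the groups compared, 264 at 1.5-fold and 1933 to 2333 with any 1 of its arrays left out, and for the single depletions 1646, 712 and 2420 to 3269, or 8240 with no control. The interaction gave 358 genes at 1.5-fold and 954 to 1495 with an array left out. Against control, siD1+3B gave 7279 with siNTC-1 as control, 486 at 1.5-fold and 3254 to 3401 with an array left out, and siD1+3A gave 7660, 386 and 2748 to 3040. The triple depletion against siD1+3A gave 302 (dim filter), 176 (quantile), 362 (trended prior), 460 (array weights), 6 (only the groups), 9 (1.5-fold) and 13 to 30, and against siD1+3B 923 (dim filter), 922 (trended prior), 1042 (array weights), 12 (only the groups), 30 (1.5-fold) and 114 to 165. Genes called the same way in all 3 exchanges were 193 (dim filter), 2 (only the groups) and 34 to 134. The settings with siNTC-1 or no control were added after seeing the data. The cause of these shifts was not tested, beyond the fewer genes or arrays that the settings use. DNMT3L, not called, changed sign without siD1+3B replicate 1 and without siD1+3A replicate 2 (-0.15 to 0.19 over the arrays left out), as did RNU5D-1 without siD1+3A replicate 1 (-0.11 to 0.06). The replicate number as a block gave 387 genes between siD1+3B and siD1+3A, and the crossed pairing, chosen after seeing the data, gave 3186 between 3B+3L and 3A+3L, where the main count was 3152. The count of genes in all 3 exchanges was 113 with the block, also added after seeing the data. For single named genes, direction and call held in 635 results under alternatives other than a left-out array, 69 lost the call and 3 gained it (DNMT1 and INHBE). Detection calls were not used here, so what low signal hides was not tested.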

Other observations

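Neighbours were taken from the RefSeq gene order. Of 145 placed genes that were higher in siD1+3B, 8 (5.52%) had a neighbour called in the same direction, in 4 pairs, among them PDZD4 with L1CAM and FAM111B with FAM111A, where 1.57% of all 18386 placed genes had a higher neighbour. Of 256 lower genes 14 (5.47%) had a lower neighbour, in 7 pairs, against 2.77% of all placed genes. Overlapping probes and shared sequence of neighbours were not tested. DNMT3B was beside MAPRE1, a microtubule plus-end protein, which fell by 0.27 and was not called without siD1+3B replicate 1 (-0.22), siD1+3A replicate 1 (-0.28) or siD1+3A replicate 2 (-0.26). The X chromosome held 9 of the 145 higher genes (6.21%) and 11 of the 256 lower genes (4.3%), against 694 of 18386 placed genes (3.77%). ZCCHC12, PDZD4 and L1CAM are X-linked. A comparison of CG content between promoters of called genes and of all genes is void here, since a minimum coverage of 80% was set for such checks and entries were found for 80.1% of the higher genes, 78.1% of the lower genes and 77.3% of all genes.

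IL17RD, PCDH18 and GPC3, called genes outside the lists, were chosen after their values were seen. IL17RD, an inhibitor of FGF signalling, was 9.13 and 9.15 in siD1+3B, against 8.75 and 8.78 in siD1+3A (0.37, adjusted p = 0.000182 by limma). PCDH18, a protocadherin outside the clusters, was 8.74 and 8.67 in siD1+3B, against 9.24 and 9.18 in siD1+3A (-0.50, adjusted p = 6.9e-05). Both were called the same way in all 3 exchanges and whichever of the 4 arrays was left out. GPC3, a heparan sulphate proteoglycan of the cell surface, fell by 0.45 and was also called whichever of the 4 arrays was left out. It was not called beside DNMT3L (-0.10, adjusted p = 0.183), so it is not among the genes called in all 3 exchanges.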
